A study of Mus musculus with 30 samples.

Results

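The N-methyl-D-aspartate (NMDA) receptor subunit transcripts Grin1, Grin2a, Grin2b, Grin2c, Grin2d and Grin3a were followed across 5 conditions of a memory experiment in the mouse dorsal hippocampus. These 6 genes were chosen by symbol as the receptor subunits, from 24883 rows of a table of FPKM values (fragment counts corrected for transcript length and for library size). All 6 were on a row of their own and all 6 passed the filter of a mean of at least 1 FPKM over the 30 libraries, which 13184 rows passed. The remaining subunit gene, Grin3b, averaged between 0.164 and 0.218 FPKM in the conditions, did not pass that filter and is given by its level only.

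The NMDA receptor is a glutamate-gated channel that passes calcium when presynaptic release and postsynaptic depolarisation coincide, and it is required for many forms of long-term potentiation in CA1. Each receptor holds GluN1, which Grin1 encodes and which binds glycine or D-serine, together with GluN2 subunits that bind glutamate and, in some receptors, GluN3 subunits. The GluN2 subunits set the kinetics of the current. GluN2A gives faster decay, GluN2B gives slower decay and binds CaMKII, GluN2C and GluN2D are weakly blocked by magnesium, and GluN3A lowers calcium entry.

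Tissue was a hemisphere of dorsal hippocampus from wild-type C57BL/6J male mice, 6 mice per condition and 1 library per mouse. VEH-HC mice were handled only and stayed in the home cage, VEH-T10 mice had 10 min of object location memory training (the threshold period), and VEH-T3 mice had 3 min (the subthreshold period). All 3 VEH groups were vehicle groups, in which the transfection reagent in vivo-jetPEI carried no DNA. Y397F-T10 mice received a plasmid for HA-tagged mouse CREST with the point mutation Y397F and 10 min of training. Y397D-T3 mice received the Y397D version and 3 min of training. The sample labels name these versions phospho-null and phospho-mimetic. The authors could not detect phosphorylation at Y397 and speak of point mutants only. The plasmids were driven by a miniCaMK2 promoter and infused on both sides 3 days before training, and tissue was frozen 1 h after training ended. Among these 5 conditions no group with plasmid stayed in the home cage, and none received unmutated CREST or a plasmid without it, so plasmid, reagent with DNA and mutation cannot be told apart. Each plasmid condition was therefore compared with the vehicle mice of its own training period as well as with VEH-HC.

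The 6 genes are close relatives, and fragments from one could in principle be assigned to another. To show how far they differ as nucleotides, the longest stretch of protein that all 6 share was located in their coding sequences. It lies in the highly conserved transmembrane region of the receptors and spans 21 bases. The stretches below come from the longest GENCODE M21 transcript of each gene, with capitals at the 13 positions at which all 6 genes carry the same base and with GRCm38 coordinates, all on the minus strand and all within a single coding exon.
Grin1, chr2:25297202-25297222, exon 15: TAcACtGCcAAccTgGCaGCc
Grin2a, chr16:9653450-9653470, exon 10: TAcACaGCcAAccTgGCtGCc
Grin2b, chr6:135772247-135772267, exon 10: TAcACtGCcAActTaGCcGCc
Grin2c, chr11:115253752-115253772, exon 11: TAcACgGCcAAtcTgGCaGCc
Grin2d, chr7:45854282-45854302, exon 8: TAtACaGCcAAtcTgGCtGCc
Grin3a, chr4:49770473-49770493, exon 3: TAcACaGCgAActTgGCtGCt
Pairs of members differed here at 2 to 6 of the 21 bases, and Grin2a and Grin2b, the members compared most closely in what follows, at 4. Over all annotated transcripts the longest run of identical bases shared by any pair of members was 34, between Grin2b and Grin2c, and for Grin2a and Grin2b it was 24. These runs are shorter than the sequenced reads.

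The gene models differ in ways that bear on the measurement. Grin2a (chromosome 16, 9567898 to 9995560) and Grin2b (chromosome 6, 135713233 to 136173511) have some of the longest transcripts of the tested genes, at 14634 and 24060 bases, longer than 99.5% and 99.96% of 12637 genes with a match. Most of that length follows the stop codon, 9929 bases in Grin2a and 18865 in Grin2b. Grin2c (chromosome 11, 115249169 to 115267243) and Grin2d (chromosome 7, 45831883 to 45878378) have 402 and 897 bases after the stop codon, and a GC content of 62.1% and 65.0%, above that of 98.1% and 99.5% of genes. Grin1 (chromosome 2, 25291181 to 25319187) has a transcript of 4276 bases and Grin3a (chromosome 4, 49661611 to 49845744) one of 7491 bases. Exons of Grin1 share 1307 bases with the antisense gene Grin1os, whose own level averaged between 0.492 and 0.926 FPKM, against more than 140 FPKM for Grin1. Whether the libraries kept strand is not given in the sources used here, so reads over those shared bases cannot be assigned with certainty.

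The libraries carried the defining markers of the labelled tissue. All 6 CA1 pyramidal neuron markers exceeded a mean of 1 FPKM, and their summed level ranged from 169 to 259 FPKM over the 30 mice. Dentate gyrus and CA2/CA3 markers were also present, with summed levels of 77.7 to 187 and 312 to 537 FPKM, so the tissue held more than CA1. Choroid plexus markers ranged from 10.1 to 12801 FPKM in sum. Relative depth, estimated from single-fragment steps in low rows, ranged from 0.812 to 1.24 of the median library, and absolute depth is unknown. Ss18l1, the gene for CREST, averaged 12.6 ± 0.92 FPKM in Y397F-T10 and 13.5 ± 0.471 in Y397D-T3, against 12.01 ± 1.18 in VEH-T10 and 12.9 ± 1.08 in VEH-T3 (mean ± SD, n = 6 each), so the plasmid does not mark a library. In bulk tissue, fewer cells of a type and less RNA per cell cannot be told apart.

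FPKM is scaled by transcript length, and levels were ordered between genes on that scale. The transcript models behind the scaling are not given in the sources used here, and libraries differed in a trend with transcript length that is described below. The part of both in this order was not tested. Grin1 was the most abundant member in 30 of 30 mice, with a mean of 147 FPKM. Grin2c (13.2), Grin2a (12.4) and Grin2b (11.3) followed at nearly equal means over the 30 mice, and Grin3a (4.23) and Grin2d (3.80) were lowest. The order within the middle 3 was not fixed: Grin2c exceeded Grin2a in 20 of 30 mice, Grin2c exceeded Grin2b in 21 of 30, and Grin2a exceeded Grin2b in 19 of 30. Grin2b exceeded Grin3a in 30 of 30 mice, while Grin3a exceeded Grin2d in 21 of 30. The order also differed between conditions. Grin2c exceeded Grin2a in 6 of 6 mice of VEH-HC and of VEH-T10, and in 3, 1 and 4 of 6 mice of Y397F-T10, VEH-T3 and Y397D-T3. Grin2a exceeded Grin2b in 0 of 6 VEH-HC mice, and Grin3a exceeded Grin2d in 6 of 6 VEH-HC mice and in 3 of 6 of VEH-T3 and of Y397D-T3.

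**Figure D1:**
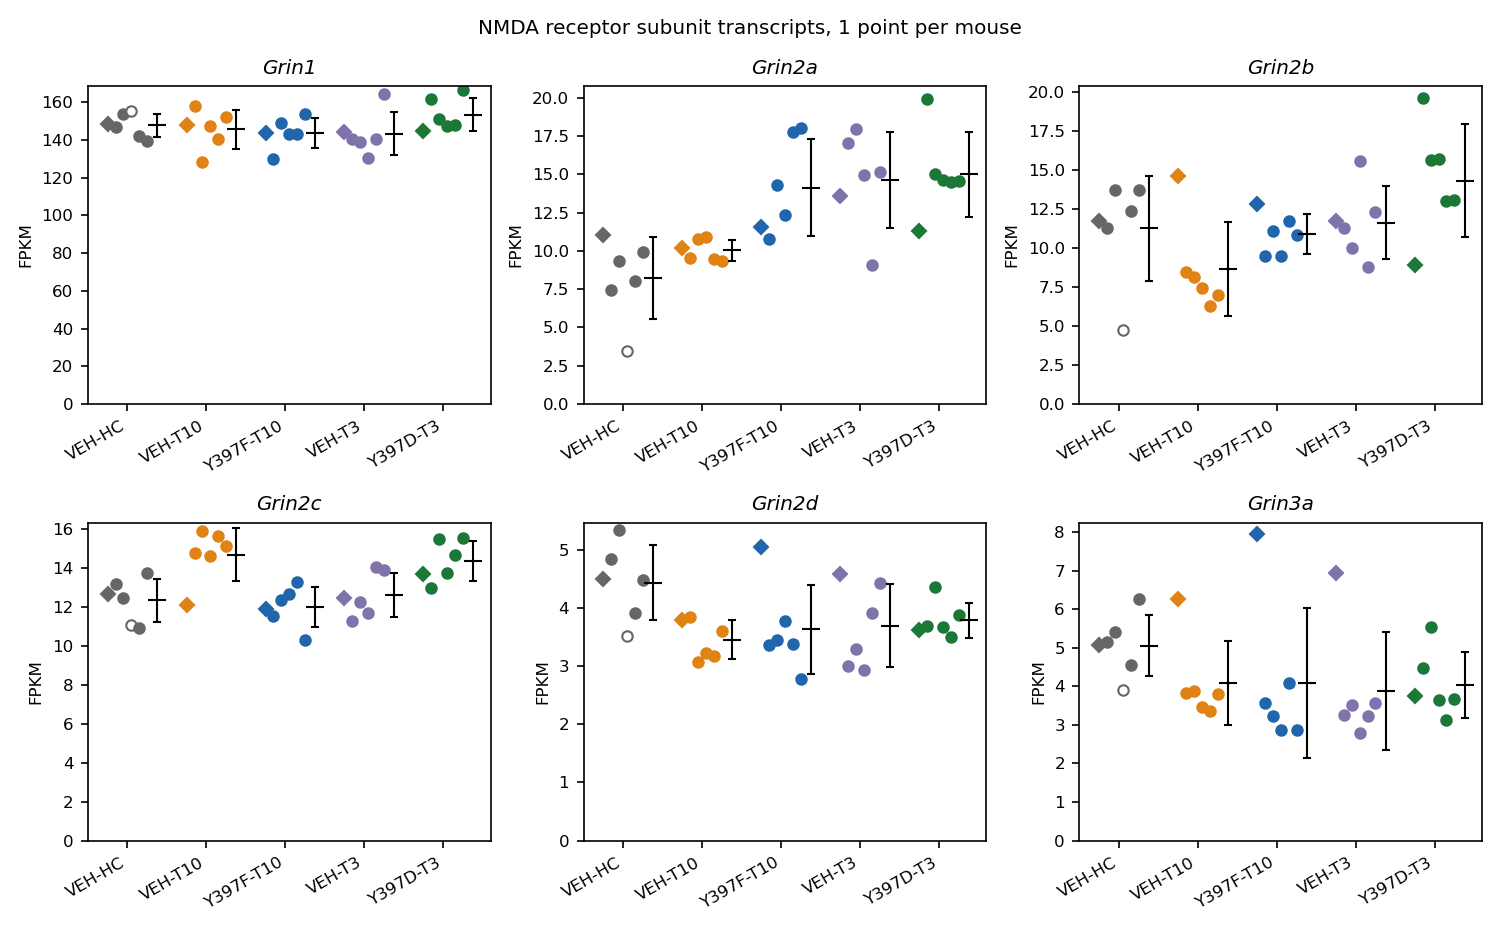
FPKM of the 6 NMDA receptor subunit genes (y axes, each from 0) in each mouse, by condition (x axes). Each point is 1 mouse, diamonds are mice with replicate number 1, the open circle is VEH-HC mouse 4, and black bars give mean ± SD (n = 6). Grin2a rises from a VEH-HC mean of 8.21 to means above 14 in Y397F-T10, VEH-T3 and Y397D-T3, and the Grin3a diamonds of VEH-T10, Y397F-T10 and VEH-T3 stand above the other mice.

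Differences were tested with limma on log2(FPKM + 1) over all 13184 rows, with a call at a Benjamini-Hochberg adjusted p under 0.05. The same 6 VEH-HC mice serve all 4 comparisons with the home cage, so those comparisons are not independent of each other. Of the 6 members, 1 was called in VEH-T3 against VEH-HC, beside 5.17% of all tested rows, 1 in Y397F-T10 against VEH-HC, beside 1.13%, and 1 in Y397D-T3 against VEH-HC, beside 7.07%. In each case that member was Grin2a, and it was higher than in VEH-HC. No member was called in VEH-T10 against VEH-HC, where 0.819% of all rows were called. Without adjustment, 2 members had p under 0.05 in each of the 4 comparisons, against 14.9% of rows in VEH-T10, 21.6% in VEH-T3, 16.9% in Y397F-T10 and 24.9% in Y397D-T3. A single called member of 6 is a larger share than the background in each comparison but is 1 gene, and it describes Grin2a rather than the family. The median log2 difference of the 6 members was -0.14 in VEH-T10, -0.01 in VEH-T3, -0.04 in Y397F-T10 and 0.13 in Y397D-T3, beside medians over all rows of -0.03, -0.04, -0.04 and -0.03.

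Grin2a encodes GluN2A, the GluN2 subunit that dominates mature hippocampal synapses. The Grin2a level spanned 3.45 to 11.03 FPKM among the VEH-HC mice, with a median of 8.70, and 9.32 to 10.9 among those of VEH-T10, with a median of 9.87. The VEH-T3 mice spanned 9.10 to 18.0 (median 15.0). With plasmid, the span was 10.8 to 18.0 (median 13.3) for Y397F-T10 and 11.3 to 19.9 (median 14.6) for Y397D-T3. The Y397D-T3 mice all lay above the highest VEH-HC mouse, as did 5 of 6 VEH-T3 and 5 of 6 Y397F-T10 mice, whereas the VEH-T10 mice lay within the VEH-HC range. Ranges that do not overlap were seen in 5.52% of all rows for Y397D-T3 against VEH-HC.

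The mean of Grin2a was 8.21 ± 2.67 FPKM for VEH-HC and 10.04 ± 0.691 for VEH-T10 (SD, n = 6). It was 14.6 ± 3.13 for VEH-T3, and with plasmid 14.1 ± 3.15 for Y397F-T10 and 15.0 ± 2.78 for Y397D-T3. On the log2(FPKM + 1) scale it rose by 0.80 in VEH-T3 (standard error 0.18, limma adjusted p = 0.0150), by 0.76 in Y397F-T10 (0.18, adjusted p = 0.0364) and by 0.84 in Y397D-T3 (0.18, adjusted p = 0.00577). All 6 mice of each of these conditions lay above the VEH-HC median. In VEH-T10 the difference was 0.33 (95% interval -0.04 to 0.69, adjusted p = 0.407), also with 6 of 6 mice above the VEH-HC median.

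The home-cage side of these comparisons leans on VEH-HC mouse 4. Its Grin2a level, 3.45 FPKM, was the lowest of the 30, and the remaining 5 home-cage mice had 7.46 to 11.03 FPKM. Without it, the differences became 0.60 in VEH-T3 (adjusted p = 0.0373), 0.56 in Y397F-T10 (adjusted p = 0.0863), 0.65 in Y397D-T3 (adjusted p = 0.0111) and 0.13 in VEH-T10 (adjusted p = 0.738), so the call in Y397F-T10 was lost and those in VEH-T3 and Y397D-T3 remained. With each of the 12 mice left out in turn, Grin2a was called in 12 of 12 fits in VEH-T3, 12 of 12 in Y397D-T3 and 5 of 12 in Y397F-T10. When only the 12 libraries compared were fitted, the calls in VEH-T3 (adjusted p = 0.102) and Y397F-T10 (adjusted p = 0.130) were lost. VEH-HC mouse 4 also stood apart in transcript length: the rank correlation, over 12637 genes, between transcript length and the deviation of a gene from its mean was -0.58 in it and between -0.38 and 0.39 in the other 29. The trend also differed between conditions, with medians of -0.08 in VEH-HC and -0.10 in VEH-T10. In Y397F-T10, VEH-T3 and Y397D-T3, the conditions in which Grin2a was called, the medians were 0.07, 0.16 and 0.08, with overlapping ranges. Within conditions, Grin2a and Grin2b correlated with this length trend (Pearson r = 0.62 and 0.59 over 30 libraries, condition means subtracted), followed by Grin3a (0.45), Grin2d (0.31), Grin1 (0.24) and Grin2c (-0.18). With the trend on length and GC content removed from every library, Grin2a remained called, by 0.63 in VEH-T3 (adjusted p = 0.0233), 0.64 in Y397F-T10 (0.0343) and 0.72 in Y397D-T3 (0.00262).

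**Figure D2:**
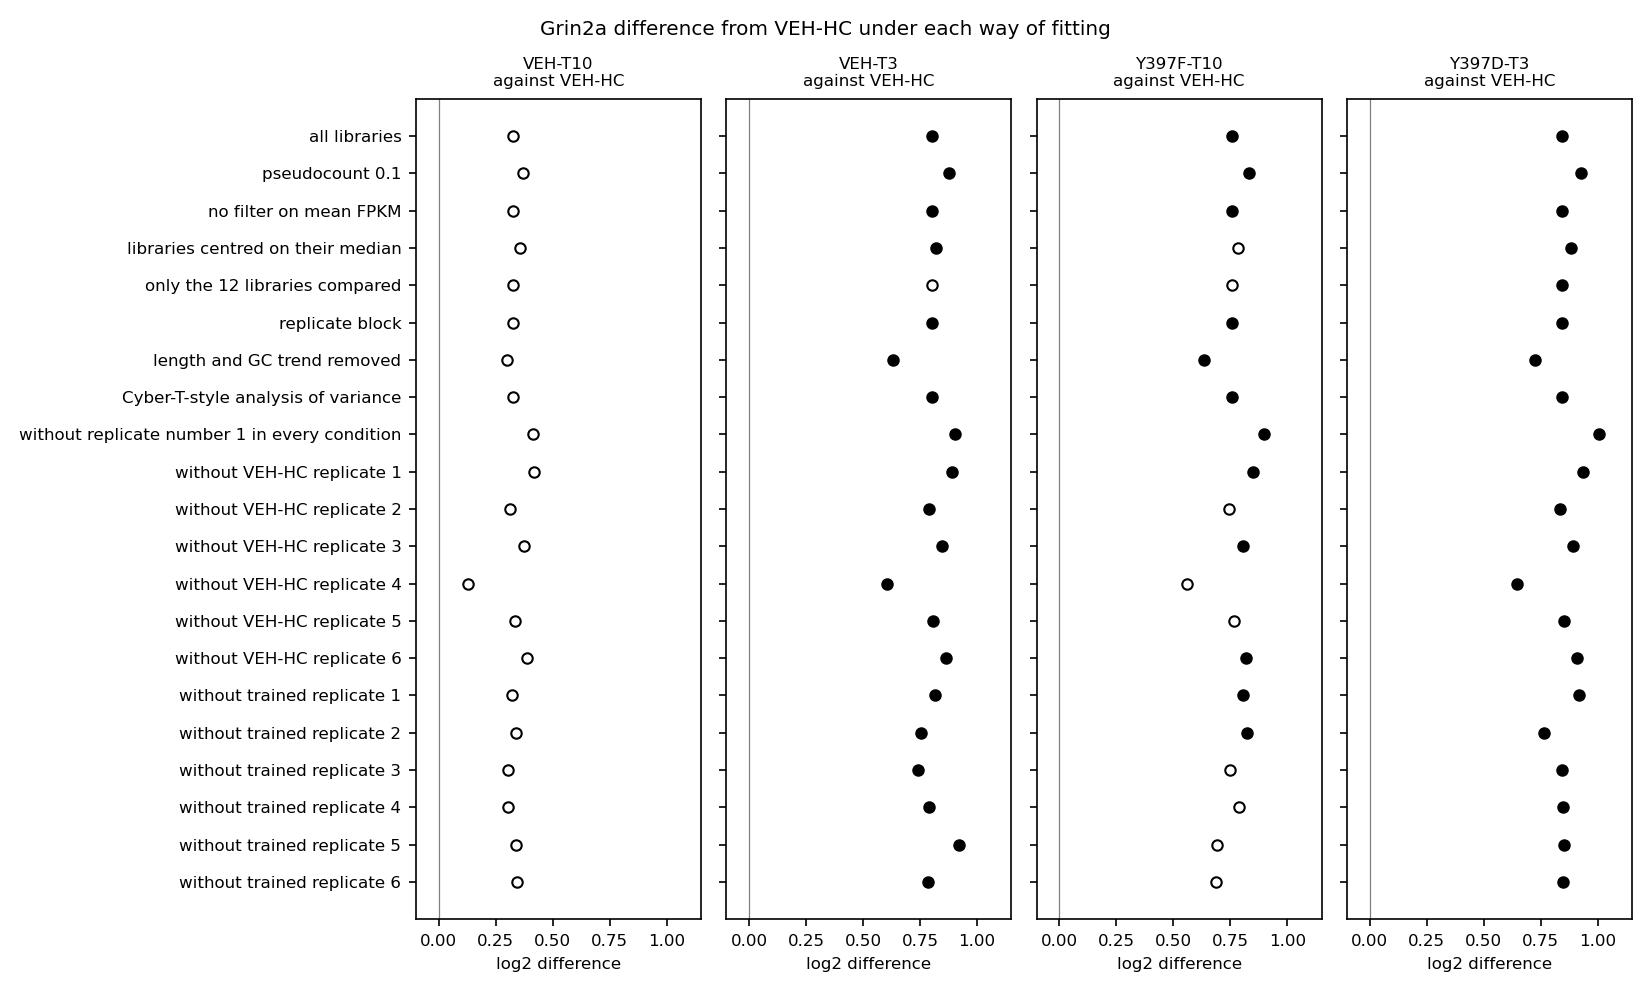
Grin2a difference from VEH-HC in log2(FPKM + 1) (x axis) for each trained condition, under each alternative fit and with each mouse left out (y axis); "trained replicate" is a mouse of the condition named above the panel. Filled points have p under 0.05 (adjusted, except for the Cyber-T-style test), open points do not; every value is above 0, and the points move furthest to the left without VEH-HC replicate 4, to 0.13, 0.60, 0.56 and 0.65.

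Between the trained conditions, limma did not call Grin2a. Y397F-T10 exceeded VEH-T10 by 0.43 (95% interval 0.06 to 0.80, unadjusted p = 0.0231, adjusted p = 1.00), and 5 of 6 Y397F-T10 mice lay above the highest VEH-T10 mouse. VEH-T10 was 0.47 lower than VEH-T3 on this scale (log2 difference -0.47, interval -0.84 to -0.11, unadjusted p = 0.0132, adjusted p = 0.538), with 6 of 6 VEH-T10 mice below the VEH-T3 median. Y397D-T3 and VEH-T3 differed by 0.04 (interval -0.32 to 0.41, adjusted p = 0.958). Grin2a thus passed the threshold against VEH-HC in VEH-T3 and not in VEH-T10, but the difference between these training periods did not pass it after adjustment.

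Grin2b encodes GluN2B, the CaMKII-binding subunit. Its level spanned 4.76 to 13.7 FPKM among the VEH-HC mice, with a median of 12.04, and 6.26 to 14.6 among those of VEH-T10, with a median of 7.79. Among VEH-T3 mice it spanned 8.75 to 15.6 (median 11.5). In plasmid mice it spanned 9.50 to 12.8 (median 10.96) for Y397F-T10 and 8.88 to 19.6 (median 14.3) for Y397D-T3. The ranges of all 5 conditions overlapped. Grin2b was not called by limma in any comparison: the log2 difference from VEH-HC was -0.33 in VEH-T10 (adjusted p = 0.451), 0.09 in VEH-T3 (0.859), 0.02 in Y397F-T10 (0.979) and 0.35 in Y397D-T3 (interval -0.05 to 0.75, adjusted p = 0.268).

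A single mouse at each end shaped the Grin2b values. VEH-HC mouse 4 had 4.76 FPKM, with the other 5 at 11.3 to 13.7, and VEH-T10 mouse 1 had 14.6 FPKM, with the other 5 at 6.26 to 8.47. Without VEH-HC mouse 4 the difference in VEH-T3 became -0.12 and that in Y397F-T10 -0.19, both with the opposite sign to the full fit. The largest differences of Grin2b between trained conditions were VEH-T10 below VEH-T3, by -0.42 (interval -0.82 to -0.01, unadjusted p = 0.0436, adjusted p = 0.610), and Y397F-T10 above VEH-T10, by 0.35 (adjusted p = 1.00, 6 of 6 mice above the VEH-T10 median). Y397D-T3 exceeded VEH-T3 by 0.27 (adjusted p = 0.756, 5 of 6 mice above the VEH-T3 median).

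Because Grin2a and Grin2b encode the main GluN2 subunits of adult forebrain receptors, their balance was described mouse by mouse. The ratio of Grin2a to Grin2b FPKM spanned 0.649 to 0.943 among the VEH-HC mice, with a median of 0.703, and 0.699 to 1.52 among those of VEH-T10, with a median of 1.33. The VEH-T3 mice spanned 0.960 to 1.80 (median 1.19). With plasmid, the span was 0.901 to 1.67 (median 1.29) for Y397F-T10 and 0.930 to 1.27 (median 1.07) for Y397D-T3. The ratio exceeded 1 in 0 of 6 VEH-HC mice, in 5 of 6 mice of VEH-T10, of VEH-T3 and of Y397F-T10, and in 4 of 6 Y397D-T3 mice, so Grin2b exceeded Grin2a in every VEH-HC mouse. The ratio in VEH-HC mouse 4 was 0.725, inside the range of the other VEH-HC mice, although its 2 levels were each the lowest of the condition. The ratio was chosen after the values had been seen and is given without a test.

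The share of Grin2a in the summed FPKM of the 4 Grin2 genes was on average 22.1% ± 4.17 for VEH-HC and 27.3% ± 1.82 for VEH-T10 (SD, n = 6). It was 34.1% ± 5.80 for VEH-T3, and with plasmid 34.5% ± 5.52 for Y397F-T10 and 31.5% ± 2.08 for Y397D-T3. The share of Grin2d was 12.5% ± 1.79 in VEH-HC and between 8.08% and 9.39% on average in the trained conditions. The mean sum of the 4 genes was 36.2 ± 7.03 FPKM for VEH-HC and 36.8 ± 2.24 for VEH-T10 (SD, n = 6). It was 42.5 ± 3.56 for VEH-T3, and with plasmid 40.7 ± 3.67 for Y397F-T10 and 47.4 ± 6.15 for Y397D-T3. Transcript sums do not give receptor numbers or protein. The ratio, the shares and the sums were not corrected for the length trend, and its part in them was not tested.

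**Figure D3:**
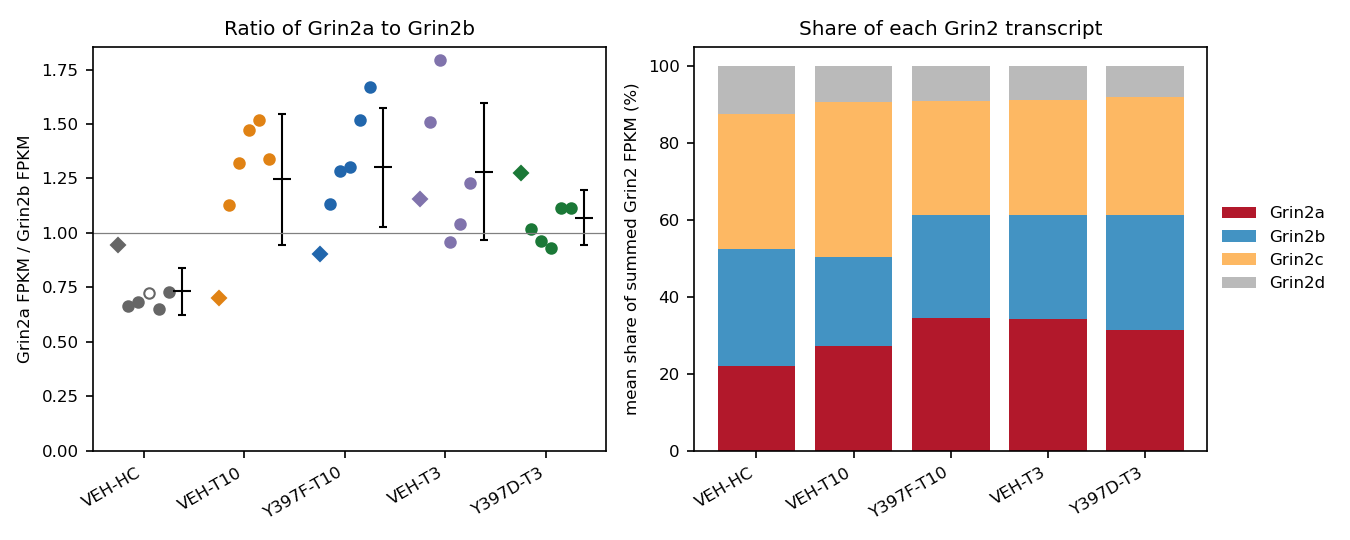
Left, ratio of Grin2a to Grin2b FPKM (y axis, from 0) in each mouse by condition (diamonds, replicate number 1; open circle, VEH-HC mouse 4; black bars, mean ± SD, n = 6; grey line, a ratio of 1). Right, mean share (%) of each Grin2 gene in the summed Grin2 FPKM; all 6 VEH-HC mice lie below a ratio of 1, and the mean Grin2a share is lowest in VEH-HC at 22.1%.

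Grin2c encodes GluN2C, a subunit best known from cerebellar granule cells and also found in forebrain astrocytes. Its level spanned 10.9 to 13.7 FPKM among the VEH-HC mice, with a median of 12.5, and 12.1 to 15.9 among those of VEH-T10, with a median of 14.9. Among VEH-T3 mice it spanned 11.3 to 14.1 (median 12.3). In plasmid mice it spanned 10.3 to 13.3 (median 12.1) for Y397F-T10 and 13.0 to 15.5 (median 14.2) for Y397D-T3. The values sat highest in VEH-T10 and Y397D-T3, where 5 of 6 and 4 of 6 mice lay above the highest VEH-HC mouse, and the ranges overlapped.

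The log2 difference of Grin2c from VEH-HC was 0.23 in VEH-T10 (interval 0.09 to 0.37, unadjusted p = 0.00186, adjusted p = 0.0888) and 0.20 in Y397D-T3 (0.06 to 0.34, unadjusted p = 0.00561, adjusted p = 0.0644), short of the threshold in each. It was 0.03 in VEH-T3 (adjusted p = 0.859) and -0.04 in Y397F-T10 (adjusted p = 0.835). VEH-T10 mouse 1, at 12.1 FPKM with the other 5 at 14.6 or more, held the VEH-T10 difference down: without it the value was 0.28 and the adjusted p 0.0291. With the length and GC trend removed the differences were 0.30 in VEH-T10 (adjusted p = 0.0191) and 0.20 in Y397D-T3 (adjusted p = 0.0400). Grin2c therefore lay on either side of the threshold depending on the fit.

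Grin2c also gave the lowest p of any member between trained conditions. Y397F-T10 was lower than VEH-T10, by -0.27 (interval -0.41 to -0.13, unadjusted p = 0.000459, adjusted p = 1.00), with 6 of 6 mice below the VEH-T10 median and 3 of 6 below its lowest mouse. By p this was row 5 of 13184, in a comparison in which no row passed the adjustment (0%). VEH-T10 exceeded VEH-T3 by 0.20 (unadjusted p = 0.00561, adjusted p = 0.448), and Y397D-T3 exceeded VEH-T3 by 0.17 (unadjusted p = 0.0160, adjusted p = 0.571).

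Grin2d encodes GluN2D, which in the adult forebrain is found mainly in interneurons. Its level spanned 3.52 to 5.34 FPKM among the VEH-HC mice, with a median of 4.49, and 3.07 to 3.84 among those of VEH-T10, with a median of 3.42. The VEH-T3 mice spanned 2.94 to 4.58 (median 3.61). With plasmid, the span was 2.78 to 5.05 (median 3.41) for Y397F-T10 and 3.49 to 4.35 (median 3.68) for Y397D-T3. Each trained condition had a lower mean than VEH-HC, and the ranges overlapped. The log2 difference from VEH-HC was -0.28 in VEH-T10 (interval -0.48 to -0.08, adjusted p = 0.151), -0.22 in VEH-T3 (adjusted p = 0.193), -0.24 in Y397F-T10 (adjusted p = 0.216) and -0.18 in Y397D-T3 (adjusted p = 0.266), none of which passed the threshold. Between trained conditions the differences lay between -0.07 and 0.05. A further gene, Kdelr1, runs over the 5′ part of Grin2d on the opposite strand at 37.3 to 42.9 FPKM on average, and the exons of these genes share no base. Exons of Grin2d do share 643 bases with the antisense gene Gm45441, which has no row among the FPKM values. As for Grin1, reads over those bases cannot be assigned with certainty. Exons of Grin2b likewise share 143, 86 and 49 bases with Gm14329, Gm22892 and Gm26653, and exons of Grin2c share 91 bases with Gm25837. These genes are also on the opposite strand and without a row, so the same limit holds there.

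Grin3a encodes GluN3A, whose level is known to fall after early postnatal life. Its level spanned 3.90 to 6.26 FPKM among the VEH-HC mice, with a median of 5.10, and 3.35 to 6.26 among those of VEH-T10, with a median of 3.81. Among VEH-T3 mice it spanned 2.79 to 6.93 (median 3.38). In plasmid mice it spanned 2.85 to 7.96 (median 3.39) for Y397F-T10 and 3.12 to 5.54 (median 3.70) for Y397D-T3. The highest mouse of VEH-T10, Y397F-T10 and VEH-T3 was in each case replicate number 1, and these 3 libraries were the 3 highest of all 30. By contrast, 5 of 6 mice in VEH-T10 and in VEH-T3 and 4 of 6 in Y397F-T10 lay below the lowest VEH-HC mouse, as did 4 of 6 in Y397D-T3.

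With all libraries, limma called Grin3a in no comparison: the log2 difference from VEH-HC was -0.26 in VEH-T10 (adjusted p = 0.525), -0.35 in VEH-T3 (0.259), -0.31 in Y397F-T10 (0.391) and -0.27 in Y397D-T3 (0.349). When replicate number 1 was left out of every condition, an alternative chosen after these values had been seen, Grin3a was lower than VEH-HC in VEH-T3 by -0.49 (adjusted p = 0.00549) and in Y397F-T10 by -0.48 (adjusted p = 0.0133), and the differences in VEH-T10 and Y397D-T3 were -0.37 (adjusted p = 0.0567) and -0.26 (adjusted p = 0.123). In the same fit of 25 libraries Grin2a remained called in VEH-T3, Y397F-T10 and Y397D-T3, at 0.90, 0.90 and 1.01.

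The libraries with high Grin3a also differed in markers of other cells and regions. In replicate 1 of VEH-T10, Y397F-T10 and VEH-T3 the summed FPKM of 6 microglial markers was 121.8, 120.3 and 101.5, the lowest values of their conditions, whose medians were 293, 259 and 215. The 6 astrocyte markers summed to 686, 669 and 679 FPKM there, and the 6 interneuron markers to 743, 857 and 804, the highest of each condition. The highest interneuron sum of all 30 libraries, 930 FPKM, was that of Y397D-T3 mouse 1, whose Grin3a level was only 3.74 FPKM. Over the 30 libraries with condition means subtracted, Grin3a had a Pearson r of 0.66 with the interneuron markers, 0.67 with the deep cortical layer markers, -0.82 with the microglial, -0.81 with the astrocyte, -0.70 with the oligodendrocyte, -0.60 with the endothelial and -0.77 with the thalamic markers. Of the hippocampal neuron lists, it had an r of -0.65 with CA2/CA3, -0.55 with dentate gyrus and 0.03 with CA1 markers. For Grin2d the values of these lists ran from -0.64 for microglia to 0.54 for interneurons. Grin2b had an r of -0.60 with the microglial and -0.57 with the astrocyte markers. Grin2a stayed between -0.30 and 0.17 for all 11 lists. All these points share their libraries and their scaling, and the part of tissue makeup in the Grin3a, Grin2d and Grin2b values was not tested.

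Some marker sums also differed between conditions. The 6 choroid plexus markers summed to 919 to 5599 FPKM in VEH-HC, with a median of 3147. The sum ranged from 29.4 to 12801 in VEH-T3 (median 1954) and from 13.5 to 2842 in Y397D-T3 (median 123). In VEH-T10 the range was 10.1 to 4469 (median 100.99) and in Y397F-T10 29.0 to 10405 (median 55.7). These markers thus varied widely between mice, and every trained condition overlapped VEH-HC. Their within-condition r with the 6 members lay between -0.49 (Grin1) and 0.07 (Grin2b). Their part in the differences from VEH-HC was not tested. The deep cortical layer markers, of which 4 of 6 exceeded a mean of 1 FPKM, summed to 36.4 to 46.8 FPKM in VEH-HC and 24.3 to 34.6 in VEH-T10, without overlap. In VEH-T3 they summed to 24.5 to 51.3, in Y397F-T10 to 26.7 to 43.8 and in Y397D-T3 to 28.0 to 40.4. The CA1 markers did not differ in this way, with condition means between 209 and 227 FPKM. None of the 66 markers was at 0 in every library.

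**Figure D4:**
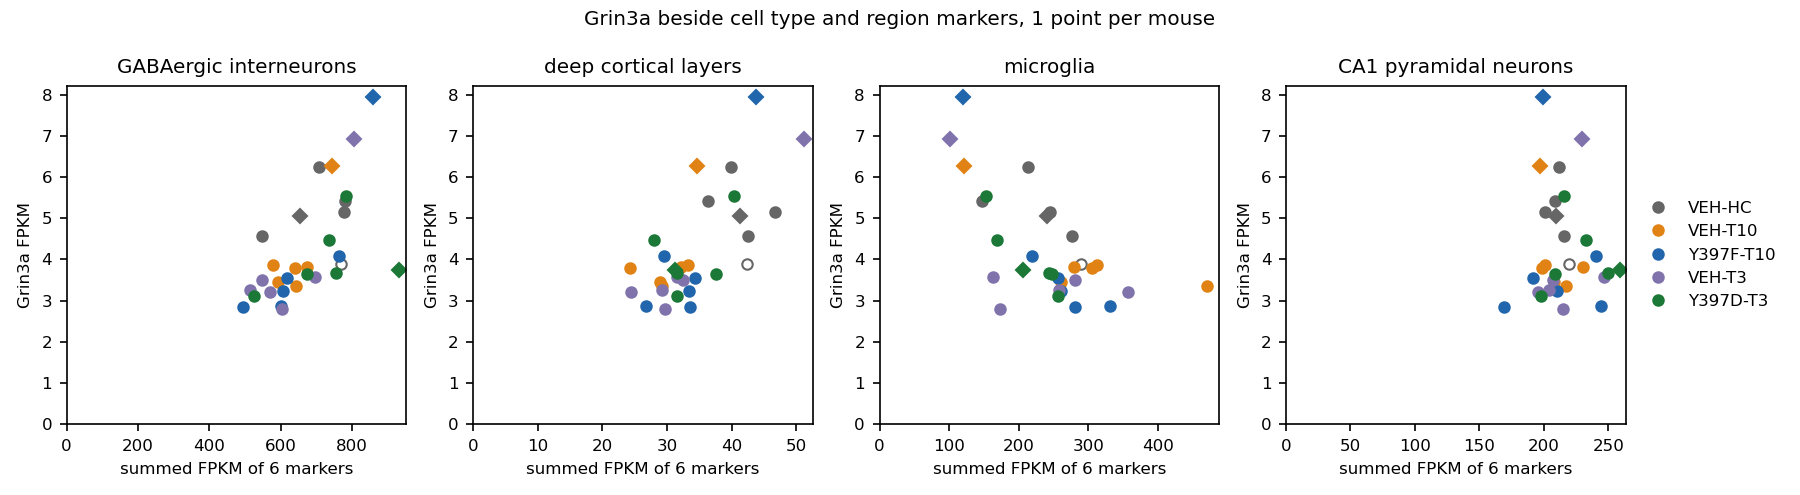
Grin3a FPKM (y axes) against the summed FPKM of 6 markers (x axes) for interneurons, deep cortical layers, microglia and CA1 pyramidal neurons, 1 point per mouse, coloured by condition (diamonds, replicate number 1; open circle, VEH-HC mouse 4). The 3 highest Grin3a values, 7.96, 6.93 and 6.26, are diamonds with microglial sums of 120.3, 101.5 and 121.8, while the CA1 sums spread from 169 to 259 without following Grin3a.

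Grin1, the obligatory subunit, varied little. Its level spanned 139.5 to 155 FPKM among the VEH-HC mice, with a median of 148, and 128 to 158 among those of VEH-T10, with a median of 148. The VEH-T3 mice spanned 130.4 to 165 (median 141). With plasmid, the span was 130.2 to 154 (median 144) for Y397F-T10 and 145 to 167 (median 149.6) for Y397D-T3. Its coefficient of variation within conditions was 4.24% to 7.97%, against 7.27% to 9.23% for Grin2c, 6.88% to 32.5% for Grin2a and 15.8% to 47.6% for Grin3a. The log2 difference from VEH-HC was -0.02 in VEH-T10 (interval -0.13 to 0.09), -0.05 in VEH-T3 (-0.15 to 0.06), -0.04 in Y397F-T10 (-0.15 to 0.07) and 0.05 in Y397D-T3 (-0.05 to 0.16), with adjusted p between 0.555 and 0.891. In this fit the intervals thus leave room for changes of at most 0.16 in either direction against VEH-HC. The bound does not carry over to other fits: the Y397D-T3 value was 0.10 (standard error 0.06) with the length and GC trend removed. The largest difference, Y397D-T3 above VEH-T3 by 0.10, had an adjusted p of 0.649. The sign of the VEH-T10 value turned positive, at 0.01, when each library was centred on its median, and those of VEH-T10, VEH-T3 and Y397F-T10 did so, at 0.04 each, with the length and GC trend removed.

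**Figure D5:**
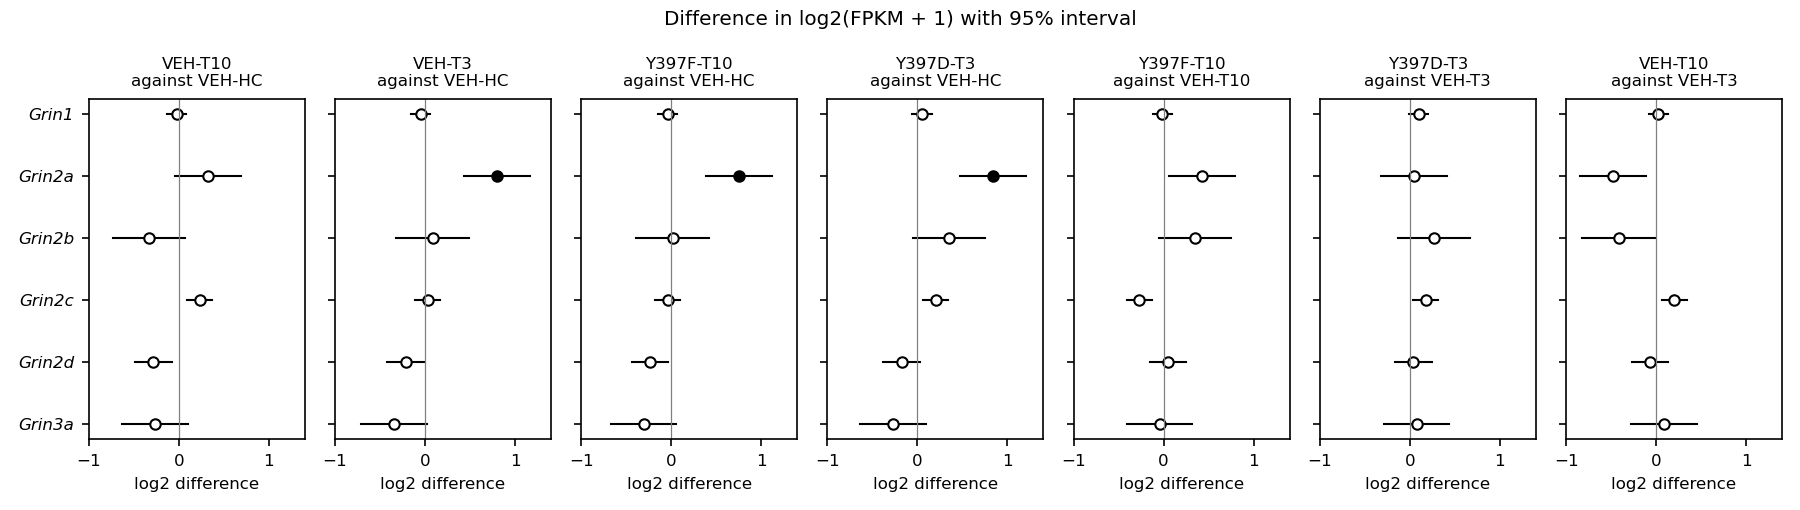
Difference in log2(FPKM + 1) (x axes) of the 6 members in the 7 comparisons, first condition minus second, with 95% intervals from limma; filled points have an adjusted p under 0.05. Only the Grin2a differences of VEH-T3, Y397F-T10 and Y397D-T3 from VEH-HC are filled, at 0.80, 0.76 and 0.84.

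In the 3 comparisons between trained conditions limma called no member. All rows together had 0% called in Y397F-T10 against VEH-T10, 0.00758% in Y397D-T3 against VEH-T3 and 0.0455% in VEH-T10 against VEH-T3. At an unadjusted p under 0.05 in limma, 2 members passed in Y397F-T10 against VEH-T10 (Grin2a higher and Grin2c lower), 1 in Y397D-T3 against VEH-T3 (Grin2c higher) and 3 in VEH-T10 against VEH-T3 (Grin2a and Grin2b lower and Grin2c higher), against 3.78%, 7.87% and 8.15% of all rows. A Cyber-T-style analysis of variance, without adjustment over genes, called Grin2a (higher) and Grin2c (lower) in Y397F-T10 against VEH-T10, where it called 0.197% of all rows. It called Grin2a and Grin2b, both lower, in VEH-T10 against VEH-T3, where it called 0.622%, and no member in Y397D-T3 against VEH-T3. In Y397D-T3 against VEH-T3 all 6 members had a difference above 0, between 0.04 and 0.27, beside a median of 0.00 over all rows. These 6 values come from the same 12 libraries and are not independent. Grin2d became -0.08 with the length and GC trend removed. Leaving out a single mouse could turn Grin2a, Grin2d or Grin3a negative, so the shared sign is no result about the family.

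Relations among the members within conditions are given as a description, over 30 libraries with condition means subtracted. Grin2a and Grin2b had a Pearson r of 0.67, which was 0.44 without VEH-HC mouse 4 and 0.80 over the 25 libraries without replicate number 1. Grin2d and Grin3a had an r of 0.73, and 0.53 over those 25 libraries. Grin2b and Grin3a had an r of 0.46, and every pair with Grin1 lay between -0.01 and 0.32.

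The genes whose log2 values followed Grin2a most closely within conditions were Sorl1 (r = 0.90), a sorting receptor of the endosome, Kcnq3 (0.89), a subunit of the M-type potassium channel, and Vps13c (0.89), a lipid transfer protein. Without subtraction of condition means they were Kcnq3 (0.95), Mib1 (0.94), a ubiquitin ligase of the Notch pathway, and Sorl1 (0.93). These 4 genes also have long transcripts, of 10231 to 11824 bases.

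The partners of the receptor were read from 4 lists, with 52 genes in all, every one of which was tested. None was called in VEH-T10 or Y397F-T10 against VEH-HC or between trained conditions. In VEH-T3 against VEH-HC 3 of the 52 were called, near the 5.17% called over all rows, so this count is no result about the partners. They were all among 14 kinases and phosphatases. Prkca, protein kinase C alpha, was higher, at 41.8 ± 2.65 against 33.6 ± 2.72 FPKM (log2 difference 0.31, adjusted p = 0.0189), as was Ppp3ca, the catalytic subunit of calcineurin (0.31, adjusted p = 0.0429). Prkaca, the catalytic subunit of protein kinase A, was lower, at 105 ± 8.88 against 118 ± 5.94 FPKM (-0.17, adjusted p = 0.0417).

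In Y397D-T3 against VEH-HC 6 of the 52 partners were called, all higher, beside 7.07% called over all rows. Of those calls over all rows 55.3% were higher, and 73.6% with libraries centred on their median. Prkca (42.7 ± 4.78 FPKM, log2 difference 0.33, adjusted p = 0.00726) and Ppp3ca (486 ± 23.6 against 379 ± 21.9 FPKM, 0.36, adjusted p = 0.0158) were among them. Camk2a and Camk2b, the CaMKII subunits that bind GluN2B, were higher by 0.24 (adjusted p = 0.0173) and 0.26 (adjusted p = 0.0406). Rapgef2, an exchange factor for Rap and the called gene of 9 downstream genes, stood at 29.4 ± 1.93 against 25.6 ± 1.79 FPKM (0.19, adjusted p = 0.0391). The median log2 difference of the 52 partners was 0.03, beside -0.03 over all rows. None of 10 genes of glutamate and co-agonist handling was called in any comparison. Ppp3ca in VEH-T3 and Camk2a and Camk2b in Y397D-T3 lie outside the naming rule and were chosen after their values were seen.

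The other ionotropic glutamate receptor genes were read beside the NMDA subunits. Of 4 AMPA receptor subunits, Gria2, the subunit that makes the channel impermeable to calcium, was higher in Y397D-T3 than in VEH-HC, at 105 ± 6.26 against 85.9 ± 6.35 FPKM (log2 difference 0.29, adjusted p = 0.0145), with all 6 mice over the home-cage median. Of 5 kainate receptor subunits, Grik1 was lower in VEH-T3 than in VEH-HC, at 2.00 ± 0.99 against 3.17 ± 0.259 FPKM (-0.53, adjusted p = 0.0415, 5 of 6 mice below the VEH-HC median). No other AMPA, kainate or delta receptor subunit was called in any of the 7 comparisons. Over all tested rows 7.07% were called in Y397D-T3 against VEH-HC, 5.17% in VEH-T3 against VEH-HC and 1.13% or less in the other comparisons. In lists this short, a single call is no result about these receptor families.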

How the data were processed

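RNA from 30 mice, 6 per condition, was sequenced by the authors as paired reads on NovaSeq and HiSeq instruments, without stating which library ran on which, so a platform batch could not be modelled. Per the labels, the deposited FPKM values were made with TopHat2 2.1.1 on mm10 and Cufflinks 2.2.1, and 24883 rows and 30 columns (0 left out) were read as deposited. Read totals are not part of this table, and precision was taken from the spread among mice.

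The test was limma 3.58.1 (R 4.3.3), run on log2(FPKM + 1) of the 13184 rows whose FPKM averaged 1 or more. Each condition had its own coefficient, the variance was shared over all 30 libraries and moderated by empirical Bayes with a trend, and p values were adjusted by Benjamini-Hochberg over all rows, with a call under 0.05. Adding 1 draws fold changes of low genes toward 0. The procedure was tested on simulated data. Other steps used Python 3.11.15. Gene models and the printed sequences are from GENCODE M21 (GRCm38, also named mm10), joined on gene symbols (length and GC content for 96.2% of tested rows).

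Members, gene lists, markers and alternatives were chosen with earlier results of these data known. Named are the members, Grin3b by its level, Ss18l1, up to 2 called genes per list and comparison with VEH-HC, and the 3 genes most like each called member. The Cyber-T-style test (window of 101 genes, prior weight of 10, Tukey p values) takes its form from earlier work that compared forms with the published lists. Alternatives were a pseudocount of 0.1, no filter (18287 rows above 0 in at least 6 libraries), median-centred libraries, only the 12 libraries compared, the replicate number as a block, removal of the length and GC trend (12686 rows), unadjusted p values and leaving out each mouse. Replicate numbers belong to different mice. The values of 1 called partner gene are not reported here.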

Additional observations from a re-analysis of the deposited data

Results flagged for a closer look

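Within each condition of 6 mice, a value was marked when its gap to the nearest mouse took up more of the whole range than Dixon's critical value for 6 values allows. This was looked at for 30 combinations of member and condition and marked 6, where chance marks about 1 in 20. Grin3a was marked in VEH-T10 (mouse 1, 6.26 FPKM, nearest 3.87), in Y397F-T10 (mouse 1, 7.96 FPKM, nearest 4.08) and in VEH-T3 (mouse 1, 6.93 FPKM, nearest 3.57), each at the high end. Grin2b was marked in VEH-HC for mouse 4 at the low end (4.76 FPKM, nearest 11.3) and in VEH-T10 for mouse 1 at the high end (14.6 FPKM, nearest 8.47). Grin2c was marked in VEH-T10 for mouse 1 at the low end (12.1 FPKM, nearest 14.6). VEH-T10 mouse 1 thus accounts for 3 of the 6 values and replicate number 1 for 5 of the 6.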

How the results depend on the processing

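Depth is unknown and each condition has 6 mice, so small differences of the members with a wide spread, Grin2a, Grin2b and Grin3a, could not be told from 0. A pseudocount of 0.1 and no filter changed the side of the threshold of none of 42 member results. Fitting the replicate number as a block changed no call either, with Grin2a at an adjusted p of 0.0180 in VEH-T3, 0.0406 in Y397F-T10 and 0.00832 in Y397D-T3 against VEH-HC and 0, 1, 1, 1, 0, 0 and 0 members called in the 7 comparisons. The numbers belong to different mice, and whether mice with the same number shared a batch or cohort is not given in the sources used here. Of 60 pairs of libraries with the same number, 24 had a correlation of deviations over 0.1. For replicate number 1 it was 7 of 10, with 0.43 for VEH-T10 and Y397F-T10, 0.41 for VEH-T10 and VEH-T3 and 0.84 for Y397F-T10 and VEH-T3. For numbers 4 and 5 it was 5 of 10 each, with values from -0.45 to 0.56 and from -0.46 to 0.52. For numbers 2, 3 and 6 it was 2, 2 and 3 of 10. The remaining values over 0.1 for replicate number 1 ran from 0.12 to 0.20. Pairs of libraries with different numbers had mean correlations from -0.04 to 0.03, by pair of conditions. The share of those pairs over 0.1 was not counted, so 24 of 60 cannot be set beside it.

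The number of members called against VEH-HC was 0 in VEH-T10, 1 in VEH-T3, 1 in Y397F-T10 and 1 in Y397D-T3. With libraries centred on their median it was 0 in Y397F-T10 (Grin2a 0.78, adjusted p = 0.0519) and 2 in Y397D-T3 (also Grin2c). With only the 12 libraries compared it was 0 in VEH-T3, 0 in Y397F-T10 and 2 in Y397D-T3. With the length and GC trend removed it was 1 in VEH-T10 (Grin2c) and 3 in Y397D-T3 (also Grin2c higher and Grin2d lower, -0.24). Without replicate number 1 in every condition, chosen after seeing the data, it was 1 in VEH-T10, 2 in VEH-T3, 2 in Y397F-T10 and 2 in Y397D-T3. Without adjustment it was 2 in each of the 4. Between trained conditions 0 members were called, against 2 (Y397F-T10 and VEH-T10), 1 (Y397D-T3 and VEH-T3) and 3 (VEH-T10 and VEH-T3) without adjustment, and 2, 0 and 2 by the Cyber-T-style test. Leaving out single mice gave 0 to 1 in VEH-T10, 1 in VEH-T3, 0 to 1 in Y397F-T10 and 1 to 2 in Y397D-T3. The call in Y397F-T10 was lost without VEH-HC mouse 2, 4 or 5 or Y397F-T10 mouse 3, 4, 5 or 6. The cause of these differences was not tested. Over all rows, higher values made up 38.9%, 43.2%, 41.6% and 55.3% of the calls in VEH-T10, VEH-T3, Y397F-T10 and Y397D-T3, and 71.7%, 70.1%, 71.4% and 73.6% with centred libraries.

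Signs turned only for differences of at most 0.0853 in size. With the trend removed, Grin1 became 0.0407 in VEH-T10, 0.0394 in VEH-T3 and 0.0409 in Y397F-T10 against VEH-HC and 0.000187 in Y397F-T10 against VEH-T10, Grin2b became -0.135 in VEH-T3 and -0.143 in Y397F-T10, Grin2c became 0.0251 in Y397F-T10, and Grin2d became -0.0764 in Y397D-T3 against VEH-T3. With centred libraries Grin1 became 0.00921 in VEH-T10. Without replicate number 1, Grin2b became -0.00505 in Y397F-T10 against VEH-HC and Grin2d -0.0131 in Y397F-T10 against VEH-T10. Leaving out a single mouse turned 21 values, over 13 differences. Against VEH-HC, the turned values were 0.0135 for Grin1 in VEH-T10, -0.120 for Grin2b in VEH-T3, -0.189 to -0.00431 for Grin2b in Y397F-T10, -0.00143 to -0.000544 for Grin2c in VEH-T3 and 0.00399 for Grin2c in Y397F-T10. In Y397F-T10 against VEH-T10 they were 0.00818 to 0.0128 for Grin1, -0.0345 for Grin2d and 0.0192 to 0.0614 for Grin3a. In Y397D-T3 against VEH-T3 they were -0.0757 to -0.0367 for Grin2a (0.117 at the other end of its range), -0.00825 to -0.00353 for Grin2d and -0.00444 for Grin3a. In VEH-T10 against VEH-T3 they were -0.00181 for Grin1 and -0.0219 for Grin3a.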
